A study of Mus musculus with 2 samples.

Results

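The miR-17-92 and miR-106b-25 clusters were examined in small RNA sequencing of J1 mouse embryonic stem (ES) cells. The members were the 9 hairpins Mir17, Mir18, Mir19a, Mir20a, Mir19b-1 and Mir92-1 (miR-17-92) and Mir106b, Mir93 and Mir25 (miR-106b-25), chosen by name from 1174 annotated mouse miRNA hairpins, not by their values. Reads were counted for a member where the sequence, called a tag, matched the hairpin without mismatch. The J1 cells, an established mouse ES cell line, had in both groups been adapted to gelatin and grown in Knockout DMEM with Knockout Serum Replacement and LIF, with no genetic change named in the labels. One group received 1 mM AICAR, a compound that enters cells and activates AMPK, the energy-sensing kinase, for 24 h, and the other received the same volume of DMSO (0 mM AICAR) for 24 h. The control sample is titled J1_U, but the treatment given in its labels is DMSO. With 1 library per condition there is no replicate check, so every interval and p-value below covers counting error in these libraries, not the spread between cultures, and PCR copies are counted as reads.

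Both clusters are known from studies of proliferation: miR-17-92 is an oncogenic miRNA cluster transcribed as one long noncoding precursor, and miR-106b-25 is a paralogous cluster carried in an intron of Mcm7, which encodes a subunit of the replicative helicase. Their miRNAs fall into families that share a seed, the bases near the 5′ end that pair with target mRNAs. Each hairpin can yield a mature strand from its 5′ side (5p) and from its 3′ side (3p), and usually one of them is kept. Another paralogous cluster, miR-106a-363, lies on chromosome X and carries near-identical copies of some of these miRNAs.

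The mature sequences below, from the RefSeq annotation of GRCm38.p6, show why the members were grouped by seed (bases 2 to 8, in capitals) and how little separates the relatives within a family. The first 4 share the seed of the miR-17 family, the next 2 that of the miR-25/92 family, the next 2 that of the miR-19 family, and miR-18a-5p has a seed of its own among the members. The last 2 are the 5p strands of Mir92-1 and Mir25, which have the same hairpin partners as the miR-25/92 family but unrelated seeds.
miR-17-5p: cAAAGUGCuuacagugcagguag
miR-20a-5p: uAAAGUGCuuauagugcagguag
miR-106b-5p: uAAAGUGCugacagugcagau
miR-93-5p: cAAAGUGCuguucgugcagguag
miR-25-3p: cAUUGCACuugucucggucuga
miR-92a-3p: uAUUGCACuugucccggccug
miR-19a-3p: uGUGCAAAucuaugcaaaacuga
miR-19b-3p: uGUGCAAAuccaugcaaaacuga
miR-18a-5p: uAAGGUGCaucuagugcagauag
miR-92a-1-5p: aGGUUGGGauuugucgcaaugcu
miR-25-5p: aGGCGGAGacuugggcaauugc

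In GRCm38 the miR-17-92 hairpins lie within 836 nt on the plus strand of chromosome 14, from 115043671 to 115044506, all inside an exon of the long noncoding host gene Mir17hg. The miR-106b-25 hairpins lie within 498 nt on the minus strand of chromosome 5, from 138165321 to 138165818, in intron 13 of the protein-coding transcript Mcm7-201, which has 15 exons. Mir93 and Mir25 also lie in an exon of Mcm7-202, an annotated transcript that retains the intron. The miR-106a-363 hairpins lie from 52741693 to 52742567 on the minus strand of chromosome X.

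The deposited clean reads numbered 18870345 with DMSO and 21091226 with AICAR. Reads that matched any hairpin made up 11.6% of the DMSO and 15.7% of the AICAR library. The libraries also differed in tag length, since reads shorter than 21 nt made up 21.3% (DMSO) and 16.3% (AICAR) of all reads, and 9.49% and 3.81% of the reads on hairpins. Values are given as RPM, the reads scaled to 1000000 clean reads, and fold changes (FC) are AICAR over DMSO. In such bulk libraries fewer cells with a miRNA and less of it per cell cannot be told apart. Relative to miRNA reads in place of clean reads, every log2 FC is lower by 0.446, and with median-ratio scaling by 0.134, so directions were read with this in mind and comparisons between members, which do not depend on the denominator, were preferred. Of the cell type marker lists, the ES cell miRNAs of the miR-290 cluster (8 of 9 in the annotation, all with reads) summed to 31363 RPM with DMSO and 54516 RPM with AICAR. The fibroblast feeder list (5 of 6 markers with reads, Mir214 at 0) summed to 209 and 208 RPM, the muscle list (4 of 4) to 157 and 203 RPM, the neural list (6 of 6) to 277 and 428 RPM and the blood list (3 of 4, Mir223 at 0) to 15.95 and 14.3 RPM. The single liver marker, miR-122, stood at 2.91 and 25.4 RPM. The part of these differences in the results below was not tested.

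All 9 member hairpins had reads, on 18 arms, of which 14 reached 1 RPM in at least 1 library. The miR-106b-25 cluster was the more abundant, at 6741 RPM with DMSO and 6470 RPM with AICAR, against 1983 and 2049 RPM for miR-17-92. Their FC were 0.960 (95% exact binomial interval 0.952 to 0.967) and 1.03 (1.02 to 1.05), both within a few percent of 1. The ratio of miR-106b-25 to miR-17-92 reads went from 3.40 to 3.16, a ratio of fold changes of 0.929 (0.914 to 0.944, Woolf interval). That ratio of fold changes turned to 1.36 (1.33 to 1.39) when only the reference tag, the most abundant tag of each arm over both libraries together, was counted. For miR-92a-3p the reference tag has 20 nt and also fits Mir92-2 of miR-106a-363. In AICAR it had 13153 reads, fewer than the 22-nt tag of Mir92-1 with 15409. The direction of the sums depended on the processing: relative to miRNA reads the FC of miR-17-92 was 0.758 and that of miR-106b-25 was 0.704, and with tags of at least 21 nt miR-106b-25 stood at 1.08.

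None of the 14 arms passed the thresholds of FC at least 2 or at most 0.5 with p at most 0.01 (Fisher's exact test, two-sided, between libraries). Of 508 miRNAs tested, 11% passed upwards and 9.45% downwards, that is 56 and 48 miRNAs, and relative to miRNA reads these counts were 21 and 112. Of the member arms, 10 were higher and 4 lower in the AICAR library, with a median FC of 1.16, while 56.9% of all miRNAs tested were higher, with a median of 1.097. The interval of the FC lay above 1 for 8 arms (38.8% of all miRNAs) and below 1 for 3 (27% of all miRNAs). Relative to miRNA reads these splits turned: 4 arms were higher and 10 lower (31.1% of all miRNAs higher), with 1 interval above 1, that of miR-93-5p, and 10 below (18.9% and 51.2% of all miRNAs). The lowest member was miR-92a-1-5p, at 0.515, and the highest miR-18a-3p, at 1.86.

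**Figure D1:**
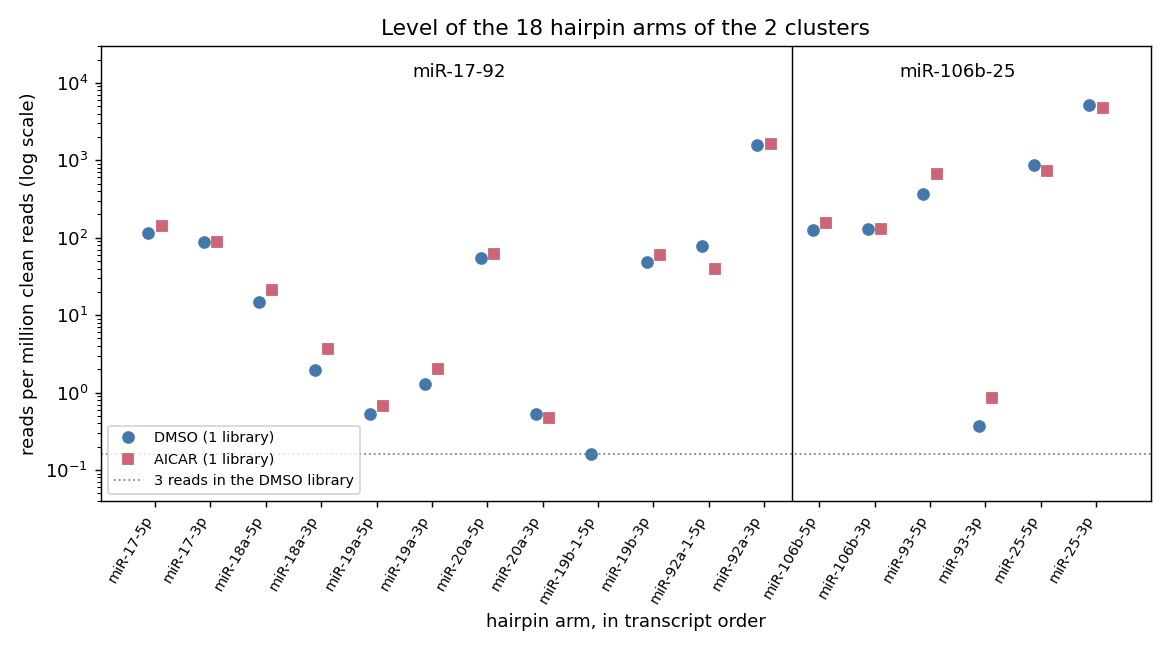
Level of each of the 18 arms as RPM of clean reads (log scale), 1 point per library, in the order of the hairpins on the transcript. Levels span from under 1 RPM to 1631 RPM in miR-17-92 and 5232 RPM in miR-106b-25, miR-25-3p and miR-92a-3p are the highest arms of their clusters, miR-93-5p and miR-92a-1-5p show the widest separation of the libraries among arms above 10 RPM, and miR-19b-1-5p has no AICAR point because it had 0 reads there.

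Within each cluster 1 hairpin gave most of the reads. These are shares of reads, and how reads of different sequences relate to numbers of molecules was not measured. Mir92-1, the last hairpin of miR-17-92, held 83.5% (95% Wilson interval 83.1 to 83.8) of its cluster with DMSO and 81.6% (81.2 to 81.9) with AICAR, the tags it shares with Mir92-2 included. Mir17 followed with 10.3% and 11.2%, Mir20a with 2.81% and 3.04%, and Mir19b-1 with 2.48% and 2.89%. Mir18 held 0.847% and 1.21%, and Mir19a, the lowest, held 0.0909% and 0.132%. In miR-106b-25 the last hairpin, Mir25, held 90.7% (90.5 to 90.8) in DMSO and 85.2% (85.0 to 85.4) in AICAR. The hairpin before it, Mir93, stood at 5.53% (5.40 to 5.65) and 10.4% (10.2 to 10.5), and Mir106b at 3.79% and 4.42%. The order of the hairpins by reads was the same in both libraries in both clusters. The intervals of the shares overlapped between libraries only for Mir19a and Mir20a, so their separation is not particular to Mir93 and Mir25.

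The miR-17 family (seed AAAGUGC), best known for repressing cell cycle inhibitors such as p21, was represented by 4 members. miR-93-5p had 7022 reads (372 RPM) with DMSO and 14107 reads (669 RPM) with AICAR, an FC of 1.80 (1.75 to 1.85). It was the highest of the 4 in each library and stood higher in AICAR also relative to miRNA reads, at 1.32. miR-106b-5p, from the same cluster, had 2404 reads (127 RPM) and 3275 reads (155 RPM), an FC of 1.22 (1.16 to 1.29). miR-17-5p had 2180 reads (116 RPM) and 2985 reads (142 RPM), an FC of 1.23 (1.16 to 1.30). miR-20a-5p had 1043 reads (55.3 RPM) and 1305 reads (61.9 RPM), an FC of 1.12 (1.03 to 1.22). For these last 3 the direction turned with the denominator, since relative to miRNA reads they stood at 0.895, 0.899 and 0.822.

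The members of the family were then compared with each other, among 14 pairs of arms compared in all by the ratio of their fold changes, with no adjustment for the number of pairs. The FC of miR-93-5p was 1.47 times that of miR-106b-5p (1.39 to 1.57), from the same cluster, and 1.47 times that of miR-17-5p (1.38 to 1.56). No precursor was measured, and the annotated Mcm7-202 holds Mir93 but not Mir106b. miR-17-5p and miR-106b-5p, which lie on different chromosomes, had a ratio of 1.01 (0.931 to 1.08). miR-17-5p and miR-20a-5p, neighbours on 1 precursor, had a ratio of 1.09 (0.992 to 1.21). The interval of each of the latter ratios includes 1, and it leaves room for differences up to its bounds.

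The other annotated miRNAs with the seed AAAGUGC were miR-106a-5p and miR-20b-5p, both from miR-106a-363. With these the family had 6 miRNAs and summed to 748 RPM with DMSO and 1086 RPM with AICAR, an FC of 1.45 (1.42 to 1.48), and the 4 members supplied 89.6% and 94.6% of it. miR-106a-5p, the paralogue of miR-17-5p, had 585 reads (31.0 RPM) and 470 reads (22.3 RPM), an FC of 0.719 (0.635 to 0.813). miR-20b-5p had 877 reads (46.5 RPM) and 756 reads (35.8 RPM), an FC of 0.771 (0.699 to 0.851). The FC of miR-17-5p was 1.70 times that of miR-106a-5p (1.49 to 1.95), and that of miR-20a-5p was 1.45 times that of miR-20b-5p (1.28 to 1.65), so the chromosome 14 miRNAs and their chromosome X relatives stood on different sides of 1 relative to clean reads. Relative to miRNA reads all of these 4 stood below 1. No tag fitted both miRNAs of either pair.

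The miR-25/92 family (seed AUUGCAC) held the most abundant members. miR-25-3p had 98736 reads (5232 RPM) with DMSO and 101023 reads (4790 RPM) with AICAR, an FC of 0.915 (0.907 to 0.923). miR-92a-3p, as counted on Mir92-1, had 29766 reads (1577 RPM) and 34403 reads (1631 RPM), an FC of 1.03 (1.02 to 1.05). Both are close to 1 and neither direction was stable: with tags of at least 21 nt miR-25-3p was at 1.06 and miR-92a-3p at 1.41, and relative to miRNA reads at 0.672 and 0.759. Within miR-106b-25 the FC of miR-93-5p was 1.96 times that of miR-25-3p (1.91 to 2.02), and with tags of at least 21 nt it was 1.75 times (1.70 to 1.81). The FC of miR-106b-5p was 1.33 times that of miR-25-3p (1.26 to 1.40), and 1.17 times (1.11 to 1.23) with the longer tags. Across the clusters the FC of miR-25-3p was 0.885 times that of miR-92a-3p (0.870 to 0.901).

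The whole seed family of 6 miRNAs summed to 7376 RPM with DMSO and 6920 RPM with AICAR, an FC of 0.938 (0.931 to 0.945), and its 2 members supplied 92.3% and 92.8%. Of the miRNAs outside the clusters, miR-92b-3p had 288 and 270.1 RPM (FC 0.938, 0.903 to 0.973), and miR-32-5p had 12.6 and 16.3 RPM (FC 1.30, 1.10 to 1.54). miR-363-3p, from miR-106a-363, had 147 and 88.5 RPM (FC 0.601, 0.566 to 0.637), the lowest FC in the family among miRNAs of at least 1 RPM. miR-367-3p had 1 read with DMSO and 0 with AICAR, both under the floor of 3 reads, so no FC is given.

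Mature miR-92a-3p can come from Mir92-1 on chromosome 14 or from Mir92-2 on chromosome X, and the hairpins part only after the base at position 21. The most abundant tags show this, with the bases that fit only one of the hairpins in capitals.
20 nt, fits both: uauugcacuugucccggccu
21 nt, fits both: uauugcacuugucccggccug
22 nt, fits Mir92-1: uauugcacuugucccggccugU
22 nt, fits Mir92-2: uauugcacuugucccggccugA

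The 20-nt tag had 15730 reads (834 RPM) with DMSO and 13153 reads (624 RPM) with AICAR, an FC of 0.748 (0.731 to 0.766). The 22-nt tag that fits Mir92-1 had 8675 reads (459.7 RPM) and 15409 reads (731 RPM), an FC of 1.59 (1.55 to 1.63). The 22-nt tag that fits Mir92-2 had 2176 reads (115 RPM) and 2593 reads (123 RPM), an FC of 1.07 (1.01 to 1.13). In all, tags that fit both hairpins stood at 0.796 (0.780 to 0.812), tags that fit only Mir92-1 at 1.59 (1.55 to 1.63) and tags that fit only Mir92-2 at 1.06 (0.997 to 1.12). Tags that fit both made up 70.0% of the miR-92a-3p reads on Mir92-1 with DMSO and 53.9% with AICAR. The base that tells the hairpins apart is also the last base of the tag, so a U or A added after processing to the 21-nt form cannot be told from the genomic base, and the split by length cannot be told from the split by origin. Counted on tags that fit no hairpin outside the cluster, miR-17-92 had 829 and 1111 RPM, an FC of 1.34 (1.31 to 1.37). The ratio of the fold change of miR-106b-25 to it was 0.717 (0.701 to 0.732). Of the 15648 reads with DMSO and 23423 with AICAR in this count, 8926 and 15862 were miR-92a-3p tags that fit only Mir92-1. Both values thus rest mostly on tags whose length and origin cannot be told apart, and do not stand for the cluster as a whole.

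The miR-19 family (seed GUGCAAA) was less abundant than these families. miR-19b-3p had 925 reads (49.0 RPM) with DMSO and 1249 reads (59.2 RPM) with AICAR, an FC of 1.21 (1.11 to 1.32), and relative to miRNA reads it stood at 0.887. Of these reads 99.9% and 100% also fitted Mir19b-2 of miR-106a-363, so the hairpin they came from cannot be told apart. miR-19a-3p, which no other hairpin shares, had 24 reads (1.27 RPM) and 43 reads (2.04 RPM), an FC of 1.60 with an interval of 0.951 to 2.76 that includes 1. The family summed to 50.4 and 61.4 RPM (FC 1.22, 1.12 to 1.33). On their 5p arms Mir19a had 10 and 14 reads, and Mir19b-1 had 3 reads with DMSO and 0 of 21091226 with AICAR, where 3 reads would be 0.142 RPM.

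miR-18a-5p (seed AAGGUGC) had 280 reads (14.8 RPM) with DMSO and 446 reads (21.1 RPM) with AICAR, an FC of 1.43 (1.22 to 1.66). Relative to miRNA reads it stood at 1.05, and its FC was 1.16 times that of miR-17-5p (0.992 to 1.36). Its relative miR-18b-5p on chromosome X had 263 reads (13.9 RPM) and 179 reads (8.49 RPM), an FC of 0.609 (0.501 to 0.739). The ratio of these fold changes was 2.34 (1.84 to 2.98), but it rested on short tags, since the most abundant tag of miR-18b-5p was only 18 nt long, and with tags of at least 21 nt the ratio was 1.09 (0.652 to 1.81). The opposite strand of the member, miR-18a-3p, had 37 reads (1.96 RPM) and 77 reads (3.65 RPM), an FC of 1.86 (1.24 to 2.84).

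Among the strands outside these seed families, miR-92a-1-5p stood lowest. It had 1458 reads (77.3 RPM) with DMSO and 840 reads (39.8 RPM) with AICAR, an FC of 0.515 (0.473 to 0.562), just outside the threshold of 0.5. It lay past that threshold under each other scaling, at 0.378 relative to miRNA reads, 0.482 with TMM and 0.470 with median-ratio scaling. Its 23-nt reference tag alone stood at 0.630 (0.565 to 0.702), and its shorter forms at 0.442 (22 nt), 0.214 (21 nt) and 0.134 (20 nt). Within its own precursor the FC of miR-17-5p was 2.38 times that of miR-92a-1-5p (2.15 to 2.63). Its relative miR-92a-2-5p, from Mir92-2, had 5277 reads (280 RPM) and 2397 reads (114 RPM), an FC of 0.406 (0.387 to 0.427), and it was the single arm of miR-106a-363 past the thresholds. The FC of miR-92a-1-5p was 1.27 times that of miR-92a-2-5p (1.15 to 1.40). miR-25-5p had 16606 reads (880.0 RPM) and 15276 reads (724 RPM), an FC of 0.823 (0.805 to 0.841), and so all 3 of these 5p partner strands of the miR-25/92 family were lower in the AICAR library under every scaling used.

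**Figure D2:**
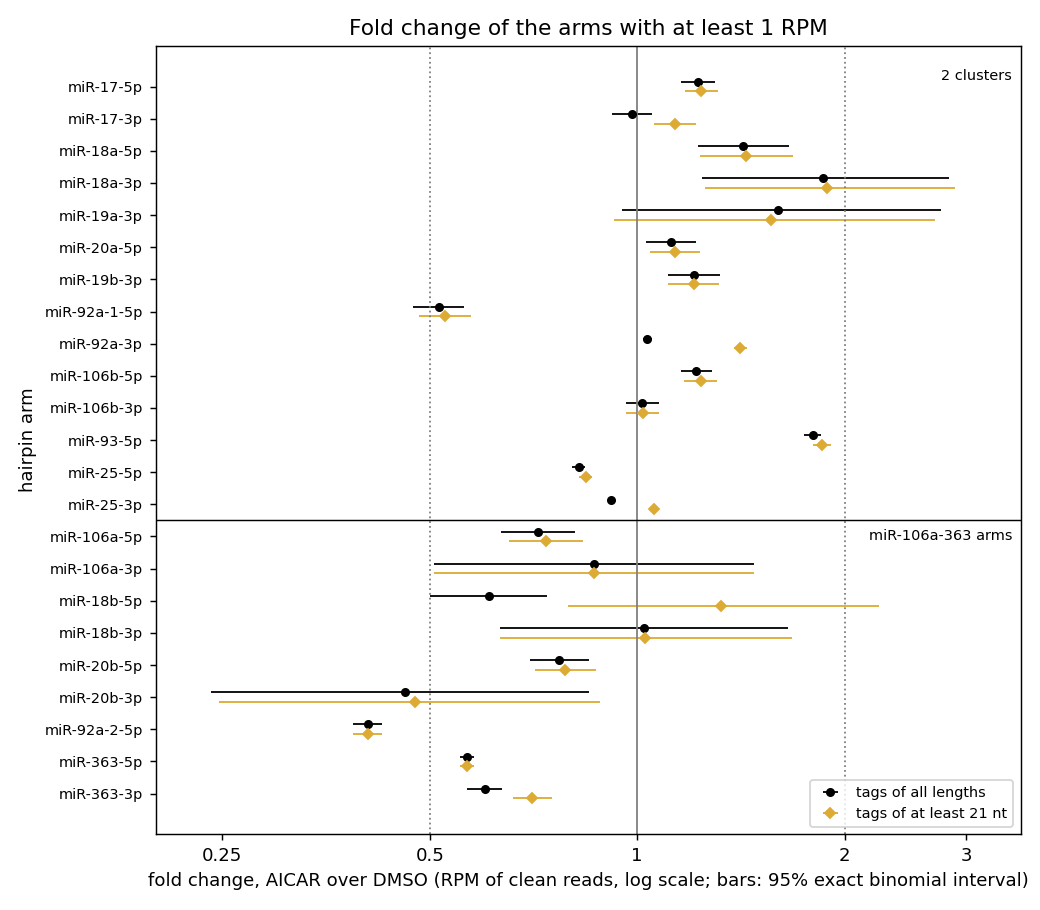
Fold change of each arm with at least 1 RPM, AICAR over DMSO, as RPM of clean reads on a log scale, for tags of all lengths (circles) and for tags of at least 21 nt (diamonds), with 95% exact binomial intervals. The solid line marks 1 and the dotted lines 0.5 and 2; miR-93-5p at 1.80 and miR-92a-1-5p at 0.515 lie near opposite dotted lines, and miR-92a-3p moves most with tag length among the member arms. Relative to miRNA reads every point would lie lower by 0.446 on the log2 scale.

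The remaining strands were close to 1 or rare. miR-17-3p had 1676 reads (88.8 RPM) with DMSO and 1841 reads (87.3 RPM) with AICAR, an FC of 0.983 (0.919 to 1.05), and 1.13 with tags of at least 21 nt. miR-106b-3p had 2423 reads (128 RPM) and 2754 reads (131 RPM), an FC of 1.02 (0.963 to 1.07), and 0.746 relative to miRNA reads. miR-20a-3p had 10 reads in each library, and miR-93-3p had 7 and 18 reads (FC 2.30, 0.917 to 6.52). Together with miR-19a-5p and miR-19b-1-5p these were the 4 arms under 1 RPM in both libraries.

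The balance between the strands of a hairpin does not depend on the denominator. For Mir92-1 the 5p share was 4.67% (4.44 to 4.91) with DMSO and 2.38% (2.23 to 2.55) with AICAR, and the odds of a 3p read were 2.01 times as high in AICAR (1.84 to 2.19). For Mir92-2 the 5p share was 18.6% and 10.2%, with odds of 2.02 (1.92 to 2.13), but both hairpins share most of their 3p tags and these are not independent values. Mir25 had a 5p share of 14.4% (14.2 to 14.6) and 13.1% (12.9 to 13.3), with odds of 1.11 (1.09 to 1.14). Mir17 and Mir106b, whose strands are nearly balanced, went the other way: the 5p share was 56.5% (55.0 to 58.1) and 61.9% (60.5 to 63.2) for Mir17, and 49.8% (48.4 to 51.2) and 54.3% (53.1 to 55.6) for Mir106b. With tags of at least 21 nt the odds of a 3p read in AICAR relative to DMSO were 0.824 (0.763 to 0.890) for Mir106b. For Mir17 they were 0.916 (0.837 to 1.002), an interval that includes 1. With the same tags they were 2.68 (2.45 to 2.93) for Mir92-1 and 1.26 (1.23 to 1.29) for Mir25. The 5p strand supplied 99.1% and 99.2% of the reads of Mir20a, 99.9% of those of Mir93 in both libraries, and 88.3% and 85.3% of those of Mir18, whereas Mir19b-1 gave nearly all of its reads from the 3p strand.

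The length of the tags differed between the libraries and bore on the most abundant members. For miR-25-3p the 22-nt tag had 63032 reads with DMSO and 77093 reads with AICAR, an FC of 1.09 (1.08 to 1.11). Its shorter forms went the other way, with an FC of 0.883 at 21 nt, 0.460 at 20 nt, 0.406 at 19 nt and 0.326 at 18 nt. Reads under 21 nt made up 22.5% of miR-25-3p with DMSO and 10.4% with AICAR. For miR-93-5p the FC was 2.31 (2.22 to 2.41) at 23 nt, 1.57 at 22 nt, 1.20 at 21 nt and 0.683 at 20 nt. The 23-nt form made up 43.6% of its reads in DMSO and 56.0% in AICAR. miR-25-5p followed the same order, with 74.0% and 87.2% at 23 nt and an FC of 0.336 at 21 nt. miR-17-5p varied less by length, with 72.2% and 69.8% at 23 nt.

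The same shift was seen outside the clusters. Of the 105 miRNAs of at least 100 RPM, 98 had a lower share of reads under 21 nt in the AICAR library (93.3%), with medians of 3.27% and 1.39%, and all 7 member miRNAs of that level did, with medians of 3.54% and 2.20%. Read length in the whole library moved the same way, as given above, and its part in these fold changes was not tested. With tags of at least 21 nt, 12 of 14 member arms were higher in AICAR, and 63.3% of all miRNAs tested were.

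**Figure D3:**
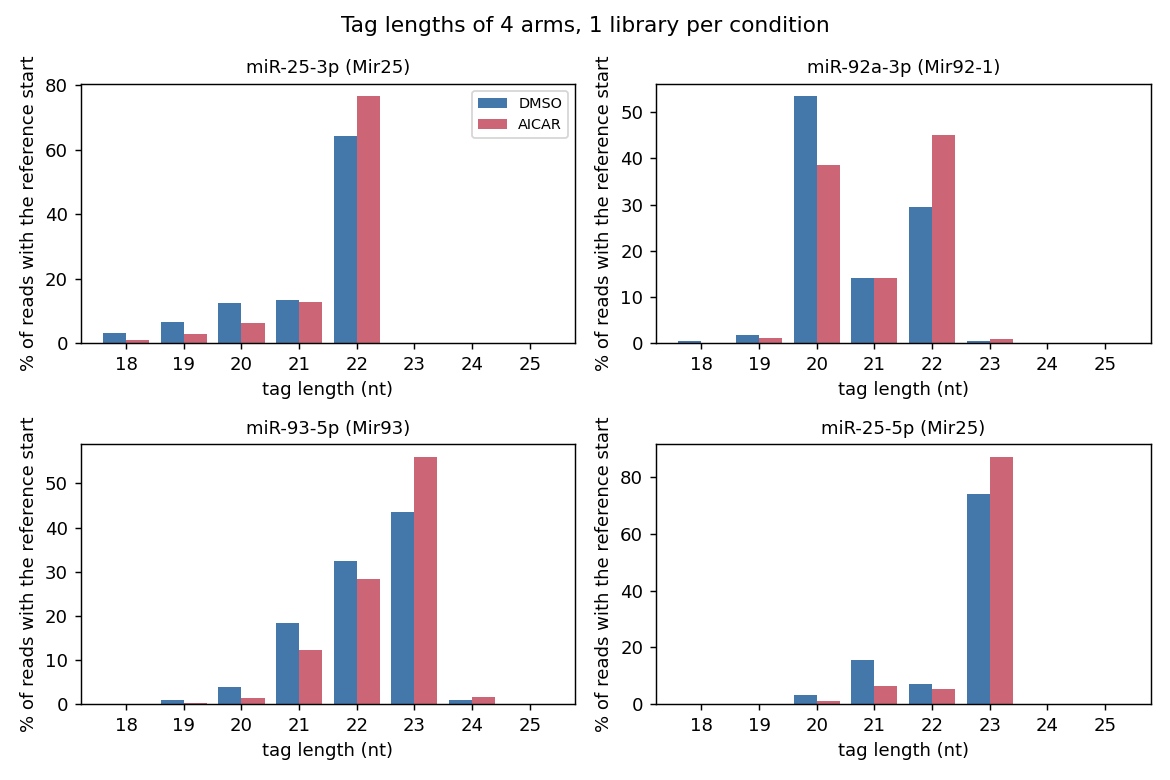
Share of the reads of 4 arms (those that start at the reference start) by tag length in nt, DMSO and AICAR side by side, 1 library each. In miR-25-3p, miR-93-5p and miR-25-5p the longest common form takes a larger share in the AICAR library (64.1% against 76.6% at 22 nt for miR-25-3p), and in miR-92a-3p the 20-nt form goes from 53.5% to 38.5% and the 22-nt form of Mir92-1 from 29.5% to 45.1%.

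The 5′ ends, which set the seed, were uniform. Between 97.6% and 99.9% of reads of the members of at least 100 RPM started at the reference start in the DMSO library. A start 1 nt downstream turns the miR-17 seed into AAGUGCU, and this form made up 0.413% of miR-93-5p (29 reads) in DMSO and 0.284% (40 reads) in AICAR. miR-17-5p started 1 nt upstream in 1.74% and 1.78% of reads. The widest spread among strands above 10 RPM was in miR-17-3p, of which 90.1% and 91.2% started at the reference start and 8.71% and 8.58% started 1 nt downstream. Reads that matched a member hairpin but fitted neither strand made up 0.112% in DMSO and 0.0551% in AICAR, with 6 and 3 reads in the loops. No read matched the opposite strand of a member hairpin in either library, which allows up to 3 reads.

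Bases added to the 3′ end were counted from tags that follow the hairpin for at least 18 nt and then carry 1 to 3 bases that it does not hold. Over all member arms such tags made up 3.84% (3.75 to 3.94) of reads with DMSO and 5.28% (5.18 to 5.38) with AICAR. Added A alone made up 1.95% and 2.64%, and added U alone 1.42% and 2.10%. A single added C or G was far rarer and near equal in the libraries, at 0.0459% and 0.0435%.

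The share differed widely between members with similar levels. miR-20a-5p stood at 15.7% (13.8 to 17.8) in DMSO and 24.6% (22.6 to 26.7) in AICAR, mainly A, and miR-17-3p at 18.9% (17.2 to 20.7) and 23.5% (21.7 to 25.3). These were the highest shares among strands of at least 500 unextended reads. miR-17-5p stood at 12.1% (10.8 to 13.4) and 16.2% (15.1 to 17.5), and miR-106b-5p at 12.5% (11.3 to 13.8) and 15.3% (14.2 to 16.5). In miR-106b-5p the commoner base was U, with 6.52% and 8.63% against 5.03% and 5.73% for A. miR-93-5p stood at 5.93% (5.42 to 6.49) and 8.48% (8.05 to 8.93), and its U additions at 1.91% and 3.80%. miR-25-3p stood at 2.29% and 2.87%, and miR-92a-1-5p at 1.16% and 0.949%, the lowest of these strands. miR-18a-5p had 4 such reads beside 279 in DMSO and 40 beside 445 in AICAR, 1.41% (0.551 to 3.58) and 8.25% (6.12 to 11.0), of which 2 and 36 carried only A. As for length, the direction was common outside the clusters: the share was higher in AICAR for 80 of the 105 miRNAs of at least 100 RPM (76.2%), with medians of 6.64% and 7.81%, and for all 7 members of that level.

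The tags of miR-17-5p show these forms, with the added bases in capitals. The first had 97 reads with DMSO and 138 with AICAR, the second 68 and 166, and the third 43 and 120.
A after 23 nt: caaagugcuuacagugcagguagA
U after 22 nt: caaagugcuuacagugcagguaU
A after 22 nt: caaagugcuuacagugcagguaA

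**Figure D4:**
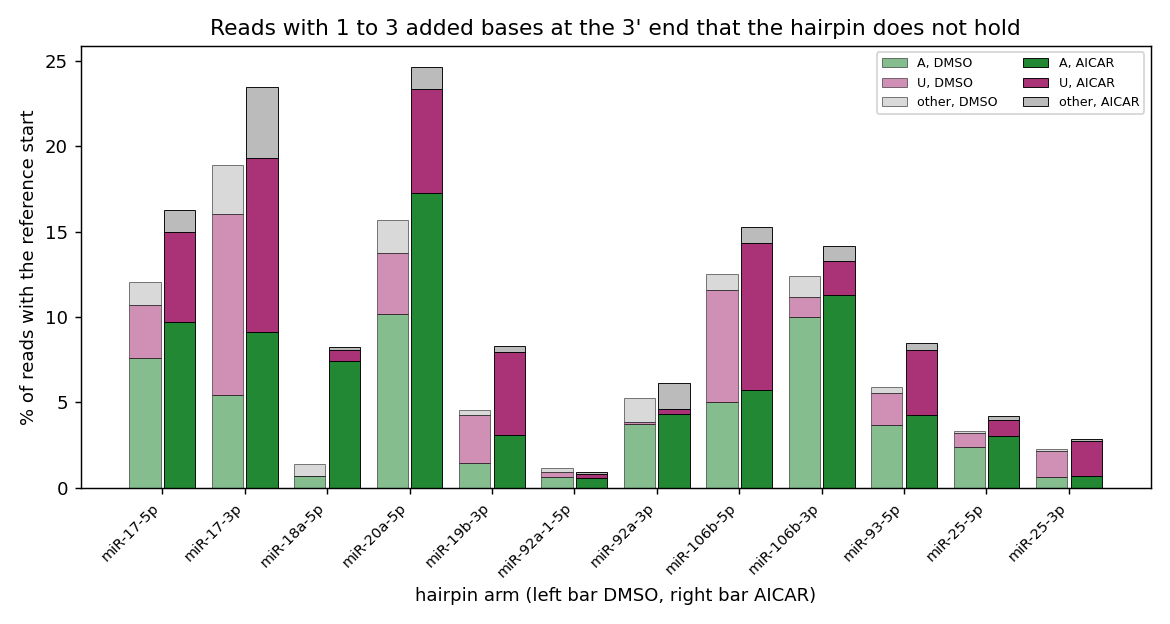
Share of reads with 1 to 3 added 3′ bases in the 12 arms with at least 500 unextended reads over both libraries, as a percentage of the reads that start at the reference start, DMSO left and AICAR right, split into A only, U only and other. miR-20a-5p and miR-17-3p are highest, miR-92a-1-5p is lowest, and U exceeds A in miR-17-3p, miR-19b-3p, miR-106b-5p and miR-25-3p.

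The paralogous miR-106a-363 cluster had a lower FC than both clusters. On tags that fit no hairpin outside it, it had 1616 RPM with DMSO and 949 RPM with AICAR, an FC of 0.588 (0.577 to 0.598). On such tags the fold change of miR-106a-363 was 0.439 times that of miR-17-92 (0.427 to 0.451) and 0.612 times that of miR-106b-25 (0.600 to 0.624). This leaves the main 20-nt and 21-nt tags of miR-92a-3p out of both miR-17-92 and miR-106a-363. The miR-17-92 count then holds mostly miR-92a-3p tags that fit only Mir92-1, and the part of tag length in these ratios was not tested. With all tags miR-106a-363 had an FC of 0.682 (0.673 to 0.691), against 1.03 for miR-17-92 and 0.960 for miR-106b-25. Of its 11 arms tested, 8 were lower and 3 higher, with a median FC of 0.719, while 43.1% of all miRNAs tested were lower. In this count miR-19b-3p and miR-92a-3p, both higher, hold the reads of both clusters. As counted on Mir92-2, shared tags included, miR-92a-3p was lower, at 0.821 (0.806 to 0.837). Its most abundant private strand, miR-363-5p, had 974 and 552 RPM, an FC of 0.566 (0.553 to 0.580).

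The other miRNAs of at least 100 RPM whose log2 FC lay nearest to that of the miR-17-92 sum were miR-128-3p (FC 1.02), miR-146b-5p (1.05) and miR-342-3p (1.00), out of 98 candidates. Nearest to the miR-106b-25 sum were miR-744-5p (0.945), miR-143-3p (0.942) and miR-92b-3p (0.938). With 2 libraries this likeness rests on a single fold change for each miRNA.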

How the data were processed

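Small RNA of 18 nt and longer was sequenced from 1 DMSO and 1 AICAR library, and the authors removed low-quality and contaminant reads, collapsed the clean reads into tags and deposited the count, length and sequence of each tag, unaligned and not normalized. The labels name a TruSeq RNA kit for the libraries. Tags of 18 to 44 nt were matched without mismatch to 1174 GENCODE vM21 miRNA hairpins of GRCm38 (symbols starting with Mir). On each hairpin the most abundant tag, and the most abundant one overlapping it by at most 2 nt, served as reference tags of the arms, by reads summed over the libraries. A tag was assigned if its start lay no more than 2 nt and its end no more than 4 nt from those of a reference tag, and a shared tag was counted in full for each hairpin. Of 9 member hairpins all matched RefSeq, with 17 of 18 mature sequences. Arms with the same reference tag were 1 miRNA in the counts over all miRNAs, of which 508 had at least 1 RPM in a library and were tested.

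RPM were computed relative to 18870345 and 21091226 clean reads, where 3 reads, taken as the limit of detection, are 0.159 and 0.142 RPM. Fold changes carry 95% exact binomial intervals, shares Wilson intervals, and ratios of fold changes and odds Woolf intervals. Fisher's exact test compared libraries, not conditions. With 1 library per condition, models with replicate variance could not be fitted, and edgeR 4.0.16 (R 4.3.3) served only for TMM factors. Named were all member arms, those of miR-106a-363, other miRNAs with a member's seed in the annotation and the 3 nearest miRNAs per cluster. Members, lists and tests were chosen with earlier results of these data known. Alternatives were other denominators, other rules for tags and other filters, and 2 of them, tags of at least 21 nt relative to reads of that length and no limit on the tag end, were added after seeing the data. Steps were tested on simulated data, using scipy 1.17.1 and numpy 2.4.6 in Python 3.11.15 throughout, with figures by matplotlib 3.10.9.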

Additional observations from a re-analysis of the deposited data

How the results depend on the processing

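No paired analysis was possible because each condition has 1 library. Below, reversed means that the FC moved to the other side of 1, whatever its interval. For miR-17-3p, miR-20a-3p, miR-106b-3p and miR-19a-5p the interval included 1 under the main settings, so they had no clear direction to reverse. Relative to miRNA reads, the FC reversed for miR-17-5p (0.899), miR-20a-5p (0.822), miR-19b-3p (0.887), miR-92a-3p (0.759), miR-106b-5p (0.895), miR-106b-3p (0.746), miR-19a-5p (0.919) and the miR-17-92 sum (0.758). There 1 of 14 member arms (miR-92a-1-5p) passed downwards, and of 508 miRNAs over all 21 passed upwards and 112 downwards. The miR-17-92 sum and miR-92a-3p also reversed with TMM (both 0.966) and median-ratio scaling (both 0.942), as did miR-106b-3p (0.9501 and 0.927). In each, 1 of 14 member arms passed downwards, beside 59 of 508 miRNAs over all with TMM and 63 of 503 with median-ratio scaling. Counting reference tags alone, miR-92a-3p (0.748), miR-25-3p (1.09), miR-17-3p (1.30), miR-17-92 (0.824), miR-106b-25 (1.12) and the ratio of the clusters (1.36) reversed. Of 14 member arms, 1 (miR-93-5p, 2.31) passed upwards, beside 59 of 441 miRNAs over all. A single tag then stands for each arm, and the cause of these changes was not tested. With tags of at least 21 nt, miR-25-3p (1.06), miR-17-3p (1.13) and miR-106b-25 (1.08) reversed, and 30 of 486 miRNAs passed downwards over all. Relative to reads of that length, miR-106b-25 (1.01), miR-17-3p (1.07) and miR-106b-3p (0.958) reversed. There 1 of 14 member arms (miR-92a-1-5p, 0.496) passed downwards, beside 40 of 486 miRNAs over all. With an identical start 1 of 14 member arms passed upwards (miR-18a-3p, 2.03), beside 59 of 489 miRNAs over all. With 1 mismatch 2 of 15 did (miR-18a-3p, 2.11, and miR-19a-3p, 2.16), beside 66 of 546 over all. In that setting miR-17-3p (1.03) and miR-20a-3p (1.07) reversed. At 10 RPM, 23 miRNAs passed upwards and 25 downwards over all, out of 272 tested in place of 508. Dividing shared tags or leaving them out changed no member, since hairpins with the same reference tag count as 1 miRNA there. Of the fold changes recomputed for arms, 159 kept their direction and side of the threshold, 20 reversed and 8 passed the fold threshold. For the cluster sums and their ratio, 21 kept theirs and 8 reversed. The settings for shared tags are among those that stayed, though they could change no member. Of the recomputed counts, 44 stayed within 1.5 times and 12 moved further. Scaling by miRNA reads, TMM or median-ratio shifts every log2 FC by the same amount, -0.446, -0.0981 and -0.134, and the reversals there follow from it. The reference tags alone and the filter at 10 RPM use fewer tags or miRNAs. For all settings other than those scalings the cause was not tested. Counting limits the arms under 100 reads, whose intervals span over 2-fold.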
